A study of Homo sapiens with 9 samples.

Results

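Genes named MIR...HG are microRNA host genes, long RNAs whose transcription unit contains 1 or more microRNA hairpins. Members were all genes whose symbol starts with MIR and ends with HG, which gave 84 of the 28717 genes of the deposited table, listed as 1575 of its 90652 transcripts. They were measured in SNU16 cells, an established human gastric carcinoma line, with the genotype given as WT in all groups. The 9 libraries form 3 groups of 3: cells given 7.69 µM 5-fluorouracil (5-FU), an antimetabolite that disturbs nucleotide supply and enters RNA and DNA, cells given 80 µM hydrogen peroxide (H2O2), a reactive oxygen species, and untreated control cells, all at 24 h. The labels do not say whether the replicates of a group were grown separately, so a p-value here covers the spread of its libraries alone, part or all of which may be technical.

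A microRNA is a short RNA that guides Argonaute proteins to partly complementary messenger RNAs and lowers their output. It starts as a hairpin in a long primary transcript, the host RNA, from which the enzyme Drosha cuts it in the nucleus, after which Dicer trims it in the cytoplasm. The hairpin may lie in an exon, so that cutting destroys the host RNA, or in an intron, where it can be cut while the exons are still joined. A host RNA level is therefore a level of the long transcript and not of the mature microRNA, and mature microRNAs were not analysed here. In cancer cells the hosts are known for the miR-17 to miR-92a cluster, which MYC activates, for miR-34a, a p53 target, for miR-210, which hypoxia induces, and for let-7, which represses RAS and HMGA2.

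Target choice depends mostly on the seed, bases 2 to 8 of the mature microRNA, written here in capitals. The sequences below (RefSeq, GRCh38.p14, 5′ to 3′) belong to the 12 hosts whose levels or transcript structure are described most closely, and they show which hosts share a seed.
hsa-let-7a-5p: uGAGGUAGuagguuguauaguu
hsa-let-7b-5p: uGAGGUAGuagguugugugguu
hsa-let-7d-5p: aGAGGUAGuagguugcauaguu
hsa-let-7f-5p: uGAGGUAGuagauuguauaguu
hsa-miR-181a-5p: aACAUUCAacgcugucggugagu
hsa-miR-181b-5p: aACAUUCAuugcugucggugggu
hsa-miR-221-3p: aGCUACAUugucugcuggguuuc
hsa-miR-222-3p: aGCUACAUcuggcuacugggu
hsa-miR-17-5p: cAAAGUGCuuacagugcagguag
hsa-miR-20a-5p: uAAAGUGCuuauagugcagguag
hsa-miR-19a-3p: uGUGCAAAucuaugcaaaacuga
hsa-miR-19b-3p: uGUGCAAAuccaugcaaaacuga
hsa-miR-92a-3p: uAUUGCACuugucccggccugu
hsa-miR-29b-3p: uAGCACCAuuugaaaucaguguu
hsa-miR-29c-3p: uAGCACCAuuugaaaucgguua
hsa-miR-23a-3p: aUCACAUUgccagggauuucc
hsa-miR-27a-3p: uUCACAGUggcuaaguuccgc
hsa-miR-24-3p: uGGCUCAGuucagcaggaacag
hsa-miR-34a-5p: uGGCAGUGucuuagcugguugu
hsa-miR-192-5p: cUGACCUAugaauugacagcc
hsa-miR-194-5p: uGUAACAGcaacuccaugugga
hsa-miR-210-3p: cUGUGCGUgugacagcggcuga
hsa-miR-924: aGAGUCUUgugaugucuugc
hsa-miR-4435: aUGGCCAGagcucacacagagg

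Let-7a, let-7b, let-7d and let-7f carried the same seed and came from 2 tested hosts, MIRLET7A1HG and MIRLET7BHG. MiR-181a and miR-181b, both in MIR181A1HG, shared another, which MIR181A2HG also carries. Within single hosts, miR-221 and miR-222 (MIR222HG), miR-29b and miR-29c (MIR29B2CHG), miR-17 and miR-20a, and miR-19a and miR-19b (both pairs in MIR17HG) shared theirs. By RefSeq positions, 110 hairpins were placed in 65 of the 84 members, on the member's own strand. Of the 27 members that could be tested, 22 held 42 of these. Of those 22, 8 had a hairpin in an exon of at least 1 GENCODE V29 transcript and 13 in introns alone. For the other 5 tested members, MIR22HG among them, no hairpin was matched in the reference used. This does not show that they, or the untested members without a match, lack one.

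Most host genes were low or silent in SNU16 cells. Levels are the deposited FPKM (fragments per kilobase of transcript, scaled to library size), which are per length, summed over a gene's transcripts. In all, 28 members were listed at 0 in each library and 29 were above 0 but too low to test. The other 27 reached 0.5 FPKM in at least 3 of the 9 libraries and were tested, 19 of them with a mean of at least 1 FPKM and 13 of at least 2. Among the members listed at 0 throughout were MIR155HG and MIR223HG, hosts known from blood cells, MIR122HG, known from liver, MIR1-1HG, known from muscle, MIR124-1HG and MIR124-2HG, known from neurons, and MIR31HG. MIR142HG, another blood cell host, was above 0 in 1 library, at 0.0781 FPKM, and MIR205HG, known from squamous epithelium, in 2.

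Marker genes are given as a description, since the listed transcripts under their symbols, mostly non-coding, cannot identify the cells. Of 14 epithelial markers the table holds 7, all tested, with KRT8 and KRT18 (keratins of simple epithelium) highest. They summed to 192 to 250 FPKM in 5-FU, 276 to 422 in H2O2 and 306 to 392 in control libraries. The 5-FU libraries lay below the controls in that sum, mostly through KRT8, at 103 ± 18.9 FPKM in 5-FU and 228 ± 57.5 in control libraries (SD, n = 3 each). CDH1 and MUC13 had log2 differences above 0, the median of the 7 was -0.13, and the part of these markers in the results below was not tested. Fibroblast markers summed to at most 0.724 FPKM, leukocyte markers to at most 0.0176 with PTPRC at 0, and VWF, the one endothelial marker listed, was at 0. FGFR2, a gene amplified in this line, averaged 2.83 FPKM over 9 libraries. Most listed transcripts belong to non-coding classes, so values under protein-coding symbols are not messenger RNA levels. Over all genes, 5-FU replicate 3 and H2O2 replicate 3 stood apart from the other libraries of their groups in a principal component analysis.

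A single gene made up much of the host signal. MIR4435-2HG (chromosome 2, 111006015 to 111523376, minus strand, GRCh38), a lncRNA known for its raised level in gastric and other cancers, averaged 54.3 FPKM over 9 libraries. The next, MIR924HG (chromosome 18, 39206917 to 39800322, minus strand), averaged 10.9. MIR4435-2HG had 63.5, 49.6 and 66.3 FPKM in 5-FU, 56.1, 58.0 and 50.2 in H2O2, and 52.4, 49.0 and 43.3 in control libraries. The 3 groups overlapped, with the lowest value in a control library and the highest in a 5-FU library. The gene held 44.5 ± 3.61% of the members' summed FPKM in 5-FU, 40.2 ± 1.49% in H2O2 and 37.4 ± 1.87% in control libraries (SD, n = 3 each).

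The level of MIR4435-2HG is uncertain because of near copies, and because 7 genes on the other strand and 8 on its own strand overlap it. One of its transcripts matches CYTOR, its near-copy elsewhere on chromosome 2, at 99.2% identity over 2254 of 3565 bases, and such reads can be divided between both genes. Shorter matches were found to AC133644.3 (99.8% identity over 437 bases) and AC017002.6 (99.7% over 303 bases). AC017002.6 is among the genes that overlap it on its own strand. CYTOR itself averaged 46.1 ± 5.07 FPKM in 5-FU, 42.4 ± 8.05 in H2O2 and 47.8 ± 2.98 in control libraries (SD, n = 3 each).

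All 84 members together summed to 134 ± 15.8 FPKM in 5-FU, 137 ± 14.6 in H2O2 and 129 ± 7.57 in control libraries (SD, n = 3 each). That was 0.231%, 0.233% and 0.226% of the FPKM listed, in the same order of groups. Below MIR4435-2HG the levels formed a gradual series: of the 26 neighbouring pairs in the order of means, only MIR4435-2HG over MIR924HG and MIR29B2CHG over MIRLET7A1HG did not overlap between their libraries. The ranges of most neighbours in the order thus overlapped, while those of hosts further apart could be separate. Each MIR924HG library was above each library of MIR4458HG and MIR210HG. Ranges ignore that both genes of a pair were measured in the same libraries: MIR924HG exceeded MIR222HG in each library, though their ranges overlap. Of the tested hosts, 13 overlap a gene on the other strand, among them MIR4435-2HG, MIR924HG, MIRLET7BHG, MIR4458HG, MIR23AHG, MIR34AHG, MIRLET7A1HG, MIR4713HG, MIR22HG, MIR2052HG, MIR762HG and MIR181A2HG, and whether the authors' values used strand is not stated, so reads of both genes may not be told apart. Some hosts overlap a gene on their own strand, where strand would not help, among them MIR4435-2HG, MIR924HG, MIR222HG, MIRLET7BHG and MIR4458HG.

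**Figure D1:**
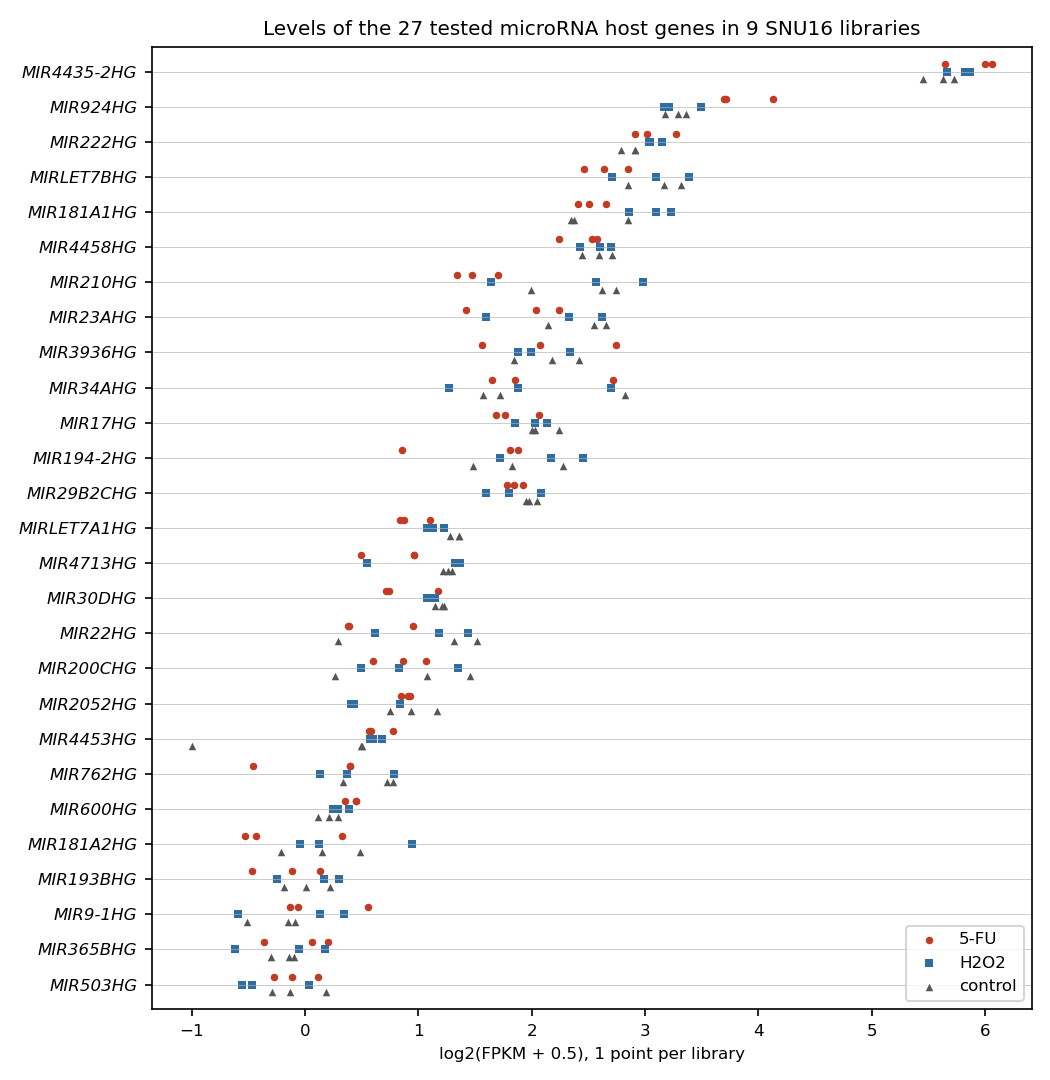
Levels of the 27 tested host genes on a log2(FPKM + 0.5) axis, 1 point per library, coloured by group, with genes ordered by their mean. MIR4435-2HG lies apart at the top, the ranges of most neighbouring genes below it overlap, and MIR4453HG has 1 control library at 0.

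Hosts differed in how much of their signal came from transcripts that extend across the microRNA. For each tested host, the share of its FPKM that came from transcripts whose span contains the hairpin was computed, as a description of the authors' transcript values. In 14 of the 22 hosts this share reached at least 50% for a hairpin they hold, among them 7 at 100%, and in 3 hosts it was under 10% for each hairpin. The 7 were MIR23AHG, MIR210HG, MIR200CHG, MIR4713HG, MIR4453HG, MIR600HG and MIR365BHG. A span includes introns, so it does not show that the counted RNA contains the hairpin. In GENCODE V29 transcripts, hairpins lie in an exon for MIR23AHG, MIR4453HG and MIR600HG, but only in introns for MIR210HG, MIR200CHG and MIR4713HG. For MIR365BHG, miR-4725 lies in an intron and miR-365b was placed in neither. Mean shares here are over the 9 libraries.

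MIR222HG (chromosome X, 45745210 to 45770274) was the most abundant of the 3 hosts under 10%. The seed-sharing pair miR-221 and miR-222, known to repress the cell cycle inhibitor p27, lies in its 3′ part. Its only transcript across the hairpins, MIR222HG-201, gave 0.94% of the gene's FPKM, with a range of 0 to 3.35%. The main transcripts, MIR222HG-204 and MIR222HG-203, lie on either side: the one ends before the hairpins, and the other starts inside that of miR-221. MIR181A1HG also had a low share: transcripts that span miR-181a and miR-181b gave 0.23% of its FPKM, with a range of 0 to 1.37%. MIR503HG was the third, with 2.34% from transcripts across miR-503 and a range of 0 to 12.7%. The 10% mark was passed in H2O2 replicate 1 alone, from 0.0281 FPKM of those transcripts.

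MIRLET7BHG differed by hairpin. Transcripts across miR-3619 gave 74.2% of its FPKM, but only 8.36% (range 2.76 to 16.6%) came from MIRLET7BHG-201, the one transcript that reaches let-7a-3 and let-7b at the 3′ end. In MIRLET7A1HG, host of let-7a-1, let-7f-1 and let-7d, the share was 81.7%.

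**Figure D2:**
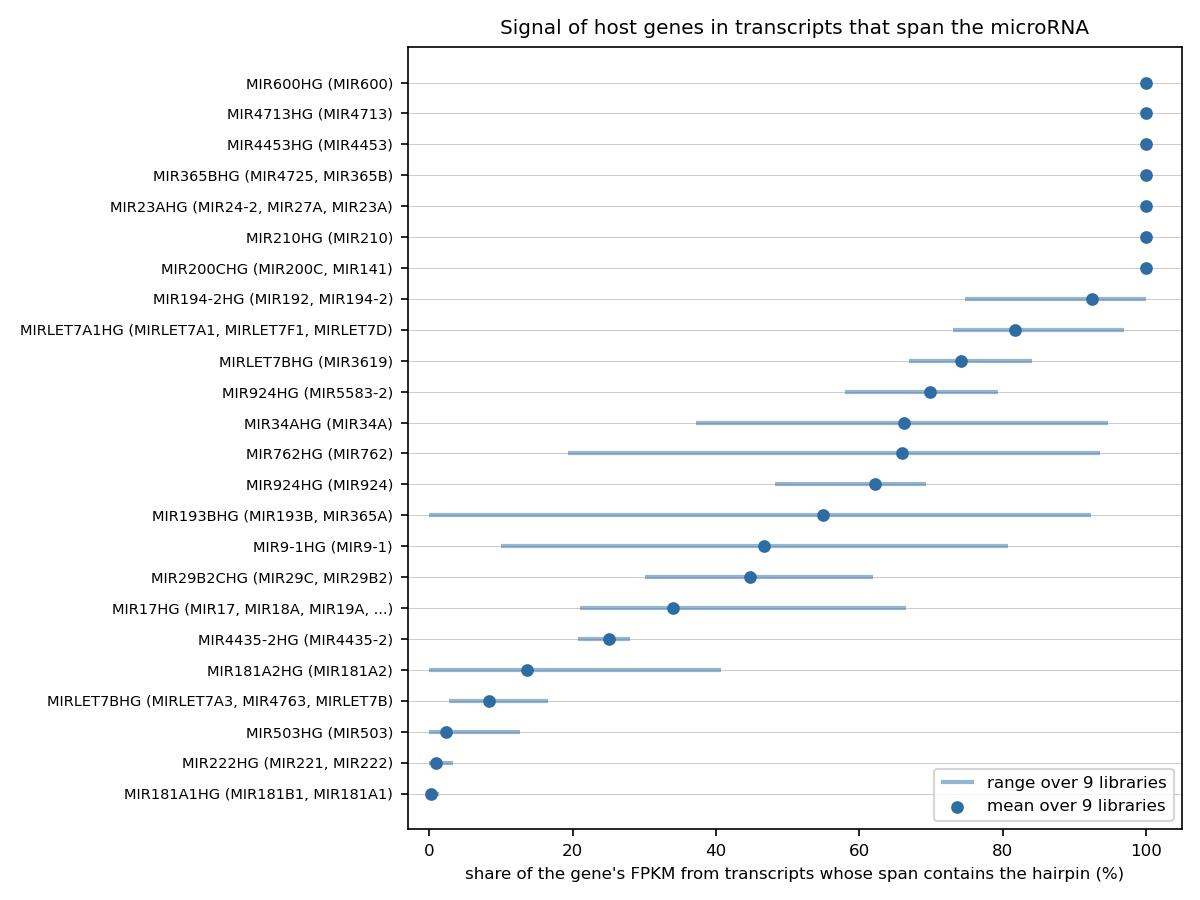
Share of each tested host gene's FPKM from transcripts whose span contains the named hairpins, in percent, as the mean (point) and range (line) over 9 libraries. Hosts run from 100% at the top to MIR222HG and MIR181A1HG, under 1% on average, at the bottom.

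MIR17HG, MIR34AHG, MIR29B2CHG and MIR200CHG host well-known microRNAs and were picked after their values were seen. MIR17HG (chromosome 13, 91347820 to 91354579) holds the 6 hairpins of the miR-17 to miR-92a cluster. Its leading transcript, MIR17HG-205, lies wholly downstream of the hairpins, and transcripts across them gave 34.0% of its FPKM (range 21.1 to 66.5%). The gene as a whole had 2.71, 3.69 and 2.89 FPKM in 5-FU, 3.10, 3.88 and 3.58 in H2O2, and 3.50, 3.58 and 4.22 in control libraries, and the groups overlapped.

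MIR17HG-203, a retained-intron transcript that spans the cluster, had 0.825, 1.01 and 1.04 FPKM in 5-FU, against 0.620, 0.527 and 0.442 FPKM in control libraries. These groups did not overlap, but the difference did not pass the test over all transcripts (log2 difference 0.50, SE 0.24, limma adjusted p = 0.498). H2O2 libraries had 0.454, 1.25 and 0.788 FPKM of it and overlapped both. It is 1 of 3 transcripts across the cluster, which together averaged 0.958 ± 0.116 FPKM in 5-FU, 1.37 ± 0.646 in H2O2 and 1.19 ± 0.736 in control libraries (SD, n = 3 each). The groups overlapped in that sum, and the 5-FU mean was below the control mean.

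MIR34AHG holds miR-34a, the p53-induced microRNA that represses cyclins and BCL2. The gene total varied widely within each group, at 2.64, 3.11 and 6.06 FPKM in 5-FU, 1.91, 5.98 and 3.19 in H2O2, and 6.57, 2.79 and 2.47 in control libraries. MIR34AHG-205, a short transcript at the 5′ end of the hairpin-spanning one, ran from 0.131 to 4.12 FPKM and was highest in the libraries where the total was. MIR34AHG-204, the transcript across miR-34a, had 1.79, 2.07 and 2.26 FPKM in 5-FU, 1.78, 2.82 and 1.86 in H2O2, and 2.45, 2.60 and 2.34 in control libraries. The 5-FU libraries lay below all controls for it (log2 difference -0.23, SE 0.20, limma adjusted p = 0.725), and the H2O2 libraries overlapped them.

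MIR29B2CHG, host of the collagen-repressing miR-29b and miR-29c, lay between 2.52 and 3.72 FPKM in all libraries. Of this, 44.7% came from MIR29B2CHG-203, its one transcript over the hairpins. MIR200CHG, host of miR-200c and miR-141, which keep epithelial cells epithelial by repressing ZEB1 and ZEB2, had 1.02, 1.31 and 1.60 FPKM in 5-FU, 2.04, 1.28 and 0.908 in H2O2, and 1.61, 0.703 and 2.24 in control libraries. These groups overlapped, and the log2 difference of 5-FU from control libraries was -0.09 (95% interval -0.80 to 0.62).

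**Figure D3:**
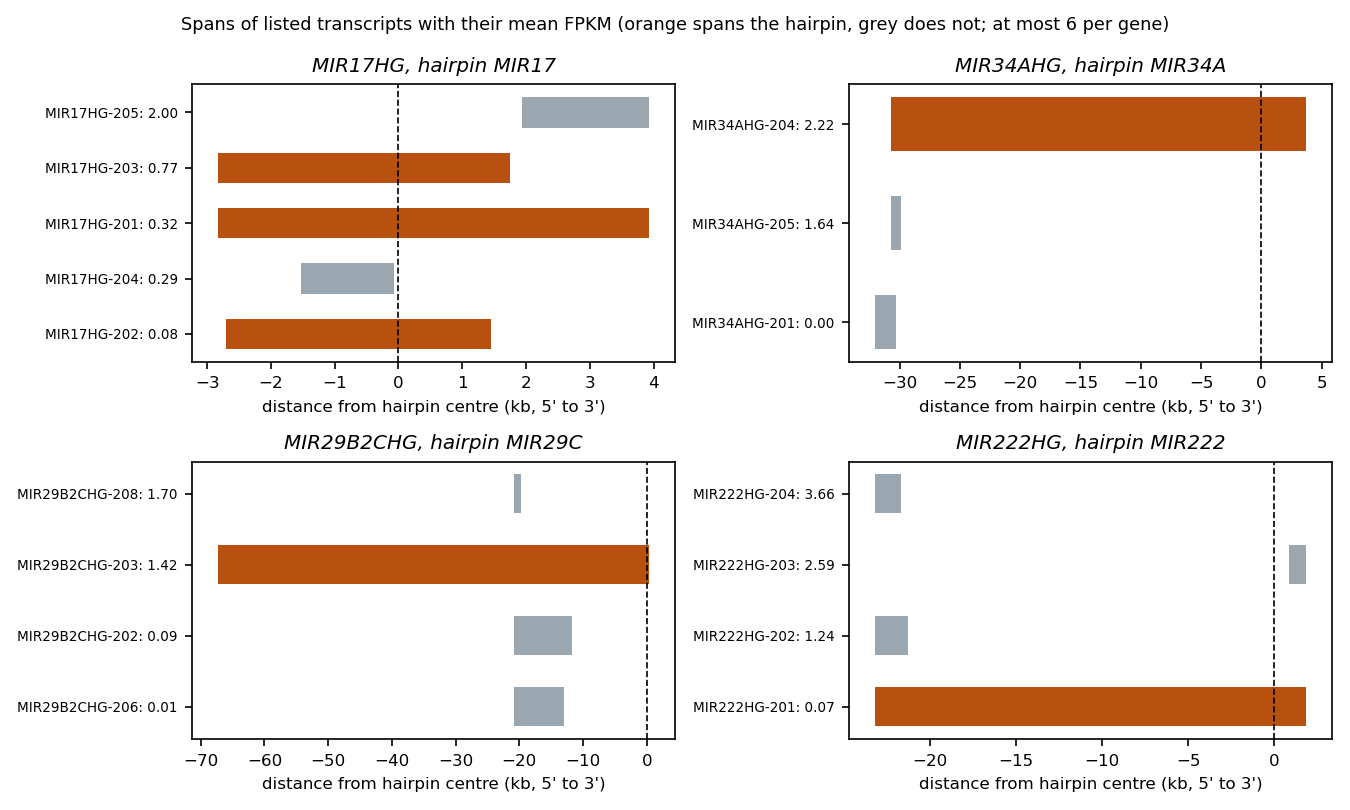
Spans of the listed transcripts of 4 hosts (bars), by distance from the centre of the named hairpin in kb, read 5′ to 3′, with each transcript's mean FPKM over 9 libraries beside its name and at most 6 transcripts per gene. Orange transcripts span the hairpin and grey ones do not: the leading transcripts of MIR17HG, MIR29B2CHG and MIR222HG are grey, that of MIR34AHG is orange.

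After 5-FU, no host gene passed the test. Of the 27 tested, 0 had a limma adjusted p under 0.05 against control, where 0.774% of all 9947 genes tested did (77 genes), and 3 had an unadjusted p under 0.05, against 15.5% of all genes. For 7 members the 5-FU and control libraries did not overlap, which is 25.9% of the members beside 22.3% of all genes. Of the 7, 3 were higher, where 12.8% of all genes were, and 4 lower, where 9.56% were. The median log2 difference was -0.13 over the members and 0.03 over all genes, and 18 of 27 members lay below 0, beside 46.2% of all genes. The 27 log2 differences ran from -0.95 to 0.64. All of them were taken after adding 0.5 FPKM, a step that shrinks the differences of low genes.

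Higher in 5-FU was MIR924HG, a long lncRNA with miR-924 in an intron. It had 12.4, 12.6 and 17.0 FPKM in 5-FU, against 8.55, 9.28 and 9.77 FPKM in control libraries. Each 5-FU library exceeded each control, with replicate 3 highest. The log2 difference was 0.57 (SE 0.17, 95% interval 0.19 to 0.94, limma adjusted p = 0.150), the smallest adjusted p of any member in this comparison, and it was 0.43 without both treatment libraries numbered 3.

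Its transcripts did not share 1 direction. MIR924HG-227 was listed at 0 in all 6 treated libraries and at 0.888, 1.07 and 0.541 FPKM in control libraries (limma adjusted p = 0.147 in 5-FU and 0.253 in H2O2). MIR924HG-252, which spans miR-924, averaged 1.28 ± 0.0802 FPKM in 5-FU and 0.749 ± 0.141 in control libraries (SD, n = 3 each). All transcripts that span miR-924 summed to 8.53 ± 1.51 FPKM in 5-FU, 6.24 ± 0.752 in H2O2 and 5.38 ± 0.918 in control libraries (SD, n = 3 each). How reads are divided among the 57 overlapping models of this gene can itself differ between libraries.

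Lower in 5-FU was MIR210HG (chromosome 11, 565657 to 568457, minus strand), host of the hypoxia-induced miR-210, which represses the iron-sulfur cluster protein ISCU. It had 2.04, 2.76 and 2.27 FPKM in 5-FU, against 6.2, 3.48 and 5.66 FPKM in control libraries. No 5-FU library reached the lowest control. The log2 difference of -0.95 was the lowest of the 27 members (SE 0.33, 95% interval -1.67 to -0.22, limma adjusted p = 0.200), and it was -0.93 without both treatment libraries numbered 3. All its listed transcripts span the hairpin, and the leading one, MIR210HG-205, averaged 1.92 ± 0.286 FPKM in 5-FU and 3.03 ± 1.24 in control libraries without overlap (SD, n = 3 each, limma adjusted p = 0.558).

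Of the let-7 hosts, MIRLET7A1HG (chromosome 9, 94166258 to 94200902, plus strand) was lower in every treated library. It had 1.29, 1.64 and 1.33 FPKM in 5-FU, 1.61, 1.69 and 1.83 in H2O2, and 2.06, 1.92 and 2.06 in control libraries. Neither treated group overlapped the controls, and the log2 difference was -0.39 in 5-FU (SE 0.16, limma adjusted p = 0.291) and -0.19 in H2O2 (SE 0.16, limma adjusted p = 0.763). Both differences use the same 3 control libraries. The transcripts across let-7a-1 and let-7f-1 summed to 1.13 ± 0.129 FPKM in 5-FU, 1.31 ± 0.111 in H2O2 and 1.78 ± 0.217 in control libraries (SD, n = 3 each).

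MIRLET7BHG, the other tested host of the let-7 seed, had 5.71, 5.01 and 6.73 FPKM in 5-FU, 8.05, 9.99 and 6.03 in H2O2, and 8.46, 6.72 and 9.48 in control libraries. The highest 5-FU library lay just above the lowest control, at 6.726 against 6.723 FPKM. Its log2 difference was -0.46 in 5-FU (SE 0.21, limma adjusted p = 0.329) and -0.05 in H2O2 (SE 0.21, limma adjusted p = 0.962).

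The other members without overlap after 5-FU were MIR4713HG and MIR29B2CHG, with log2 differences of -0.45 and -0.14, and MIR4453HG and MIR600HG, with 0.64 and 0.21. The limma adjusted p of these lay between 0.414 and 0.754. The value of MIR4453HG rests on 1 library. It had 0.978, 0.997 and 1.21 FPKM in 5-FU, 1.10, 1.02 and 0.991 in H2O2, and 0.906, 0 and 0.917 in control libraries, and its log2 difference in 5-FU was 0.14 without control replicate 2. MIR600HG lies inside STRBP on the same strand and shares 256 bases with 1 of its transcripts.

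**Figure D4:**
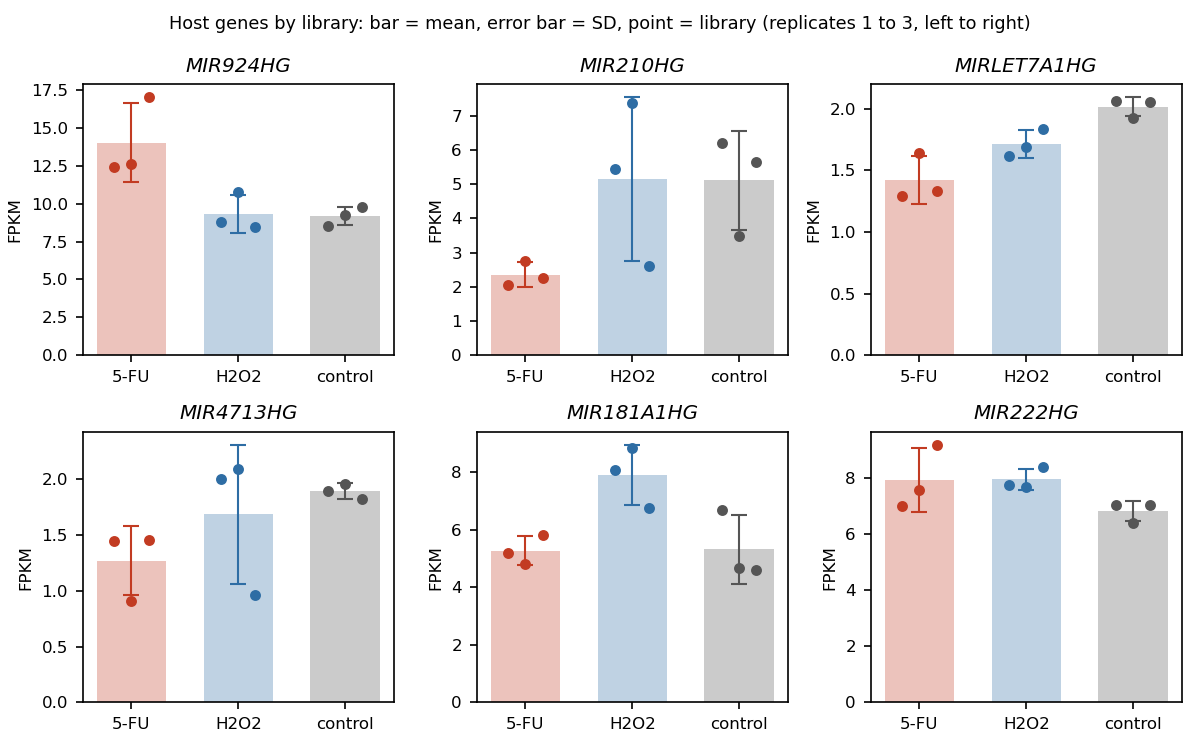
FPKM of 6 host genes by library in 5-FU, H2O2 and control cells (bar, mean; error bar, SD; point, library). MIR924HG is highest in 5-FU, MIR210HG and MIRLET7A1HG are lowest in 5-FU, and MIR181A1HG and MIR222HG are higher in H2O2 than in control libraries.

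The remaining hosts of the named rule gave intervals that include 0 after 5-FU. MIR4435-2HG had a log2 difference of 0.30 (95% interval -0.03 to 0.63, limma adjusted p = 0.369). MIR23AHG, whose 1 listed transcript carries miR-23a, miR-27a and miR-24-2 in an exon, had 2.18, 3.60 and 4.22 FPKM in 5-FU, 5.65, 4.52 and 2.53 in H2O2, and 5.34, 5.78 and 3.92 in control libraries. Its log2 difference was -0.55 (95% interval -1.21 to 0.11, limma adjusted p = 0.408), or -0.31 without 5-FU replicate 1, and it overlaps ZSWIM4 on the other strand.

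MIR22HG, named for miR-22, had 1.43, 0.811 and 0.803 FPKM in 5-FU, 2.21, 1.77 and 1.03 in H2O2, and 2.36, 1.99 and 0.721 in control libraries. MIR762HG had 0.817, 0.812 and 0.226 FPKM in 5-FU, 0.794, 1.22 and 0.594 in H2O2, and 1.15, 1.21 and 0.763 in control libraries. MIR9-1HG, host of a copy of miR-9, a microRNA of neural progenitors, had 0.459, 0.409 and 0.969 FPKM in 5-FU, 0.770, 0.592 and 0.162 in H2O2, and 0.399, 0.200 and 0.442 in control libraries. The 3 groups overlapped for each, and the log2 differences in 5-FU were -0.47, -0.50 and 0.37 (limma adjusted p = 0.554, 0.426 and 0.588). Single libraries moved each of them: that of MIR22HG was -0.84 without control replicate 3 and -0.23 without control replicate 1, that of MIR762HG was -0.22 without 5-FU replicate 3, and that of MIR9-1HG was 0.15 without 5-FU replicate 3.

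MIR4458HG, a lncRNA of chromosome 5, had 4.23, 5.45 and 5.27 FPKM in 5-FU, 6.01, 5.57 and 4.88 in H2O2, and 6.05, 5.53 and 4.92 in control libraries, with overlap. Its log2 difference in 5-FU was -0.13 (limma adjusted p = 0.754). MIR222HG, at 7.00, 7.58 and 9.18 FPKM in 5-FU libraries, had 0.20 (limma adjusted p = 0.577) from control libraries. MIR181A1HG had 0.00 there (limma adjusted p = 0.997).

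After H2O2, 0 of the 27 host genes passed the limma test, as did 0.0% of all genes. At an unadjusted p under 0.05 there was 1 member, against 902 genes or 9.07% of all. In 4 members the groups did not overlap, which is 14.8% beside 15.4% of all genes. Of the 4, 3 were higher, where 8.86% of all genes were, and 1 lower, where 6.51% were. The median log2 difference was -0.04 over the members and 0.03 over all genes, and 15 of 27 members lay below 0, beside 46.1% of all genes.

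MIR181A1HG (chromosome 1, 198777861 to 198937471, minus strand) was the member that differed most by p. It had 8.08, 8.85 and 6.77 FPKM in H2O2, against 6.70, 4.67 and 4.59 FPKM in control libraries. The H2O2 libraries lay above all controls in the deposited values, by little for the lowest of them. With median-of-ratios or upper-quartile scaling of the libraries the groups overlapped. On the deposited values the log2 difference was 0.54 (SE 0.18, 95% interval 0.13 to 0.95, limma adjusted p = 0.473), and it was 0.64 without both treatment libraries numbered 3. The higher transcripts, MIR181A1HG-207 and MIR181A1HG-208, lie at the 5′ end of the gene and end before miR-181a. MIR181A1HG-207 averaged 2.89 ± 0.881 FPKM in H2O2 and 1.82 ± 0.0409 in control libraries (SD, n = 3 each, limma adjusted p = 0.616).

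MIR181A2HG, the other tested host of miR-181a, named after its values were seen, had 0.469, 0.586 and 1.42 FPKM in H2O2, against 0.364, 0.900 and 0.609 FPKM in control libraries, which overlapped. Its log2 difference was 0.20 (SE 0.33, limma adjusted p = 0.890).

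MIR222HG had 7.75, 7.68 and 8.38 FPKM in H2O2, against 7.03, 6.40 and 7.03 FPKM in control libraries. The groups did not overlap, and the log2 difference was 0.21 (SE 0.15, 95% interval -0.13 to 0.54, limma adjusted p = 0.700). MIR222HG-204, its leading transcript at the 5′ end, averaged 4.21 ± 0.409 FPKM in 5-FU, 3.95 ± 0.523 in H2O2 and 2.83 ± 0.242 in control libraries (SD, n = 3 each). Both treated groups lay above all controls (limma adjusted p = 0.365 in 5-FU and 0.638 in H2O2).

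MIR4453HG was again higher by 0.62, and by 0.12 without control replicate 2. MIR194-2HG, host of miR-192 and miR-194, known from gut and liver epithelium, had 4.0, 4.99 and 2.80 FPKM in H2O2, against 2.29, 4.35 and 3.05 FPKM in control libraries, with overlap (log2 difference 0.25, SE 0.32, limma adjusted p = 0.844). That value was 0.06 without control replicate 1, 0.08 without H2O2 replicate 2, 0.45 without H2O2 replicate 3 and 0.46 without control replicate 2.

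MIR2052HG had 0.849, 1.29 and 0.821 FPKM in H2O2, against 1.41, 1.18 and 1.73 FPKM in control libraries, with overlap. MIR503HG, host of the cell-cycle microRNA miR-503, had 0.222, 0.526 and 0.179 FPKM in H2O2, against 0.412, 0.319 and 0.638 FPKM in control libraries, with overlap. Their log2 differences were -0.39 and -0.25 (limma adjusted p = 0.592 and 0.772), and MIR9-1HG had 0.21 (limma adjusted p = 0.860). When single libraries were left out, MIR503HG ran from -0.44 without H2O2 replicate 2 to -0.12 without control replicate 3, and MIR9-1HG from 0.02 without H2O2 replicate 1 to 0.49 without H2O2 replicate 3. MIR23AHG had -0.26 (limma adjusted p = 0.817), and 0.03 without H2O2 replicate 3. The 2 members furthest from control libraries after 5-FU by p lay close to them after H2O2. MIR210HG, at 5.44, 7.38 and 2.62 FPKM in H2O2, had a log2 difference of -0.06 from control libraries (95% interval -0.78 to 0.67, limma adjusted p = 0.971). MIR924HG, at 8.78, 10.8 and 8.46 FPKM in H2O2, had 0.01 (95% interval -0.36 to 0.39, limma adjusted p = 0.987).

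Set directly against each other, 5-FU and H2O2 cells gave 0 host genes past the limma test, where 0.0704% of all genes passed, and 3 with an unadjusted p under 0.05, against 11.6% of all genes. Groups did not overlap for 3 members, which is 11.1% beside 17.7% of all genes, 2 of them higher in 5-FU (9.42% of all genes) and 1 lower (8.32%). The median log2 difference was -0.13 over the members and 0.00 over all genes, and 16 of 27 members lay below 0, beside 49.6% of all genes. MIR924HG was higher in 5-FU than in H2O2 libraries (log2 difference 0.55, SE 0.17, 95% interval 0.18 to 0.93, limma adjusted p = 0.253). MIR181A1HG was lower in 5-FU, at 5.17, 4.82 and 5.81 FPKM, than in H2O2 libraries (log2 difference -0.54, SE 0.18, limma adjusted p = 0.308). MIR2052HG was higher in 5-FU, at 1.30, 1.40 and 1.38 FPKM, against 0.849, 1.29 and 0.821 FPKM in H2O2 libraries (log2 difference 0.34, SE 0.20, limma adjusted p = 0.531). The value for MIR924HG was 0.35 without both libraries numbered 3.

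MIR210HG had a log2 difference of -0.89 between 5-FU and H2O2 libraries (SE 0.33, 95% interval -1.61 to -0.17, limma adjusted p = 0.340), with H2O2 replicate 3 inside the 5-FU range, and -1.25 without both libraries numbered 3. MIR194-2HG, at 3.18, 3.01 and 1.31 FPKM in 5-FU libraries, had -0.60 (limma adjusted p = 0.494) with overlap, and -0.27 without 5-FU replicate 3. For every member whose groups did not overlap, the exact two-sided permutation test gave p = 0.1, the smallest that 3 against 3 libraries allow.

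**Figure D5:**
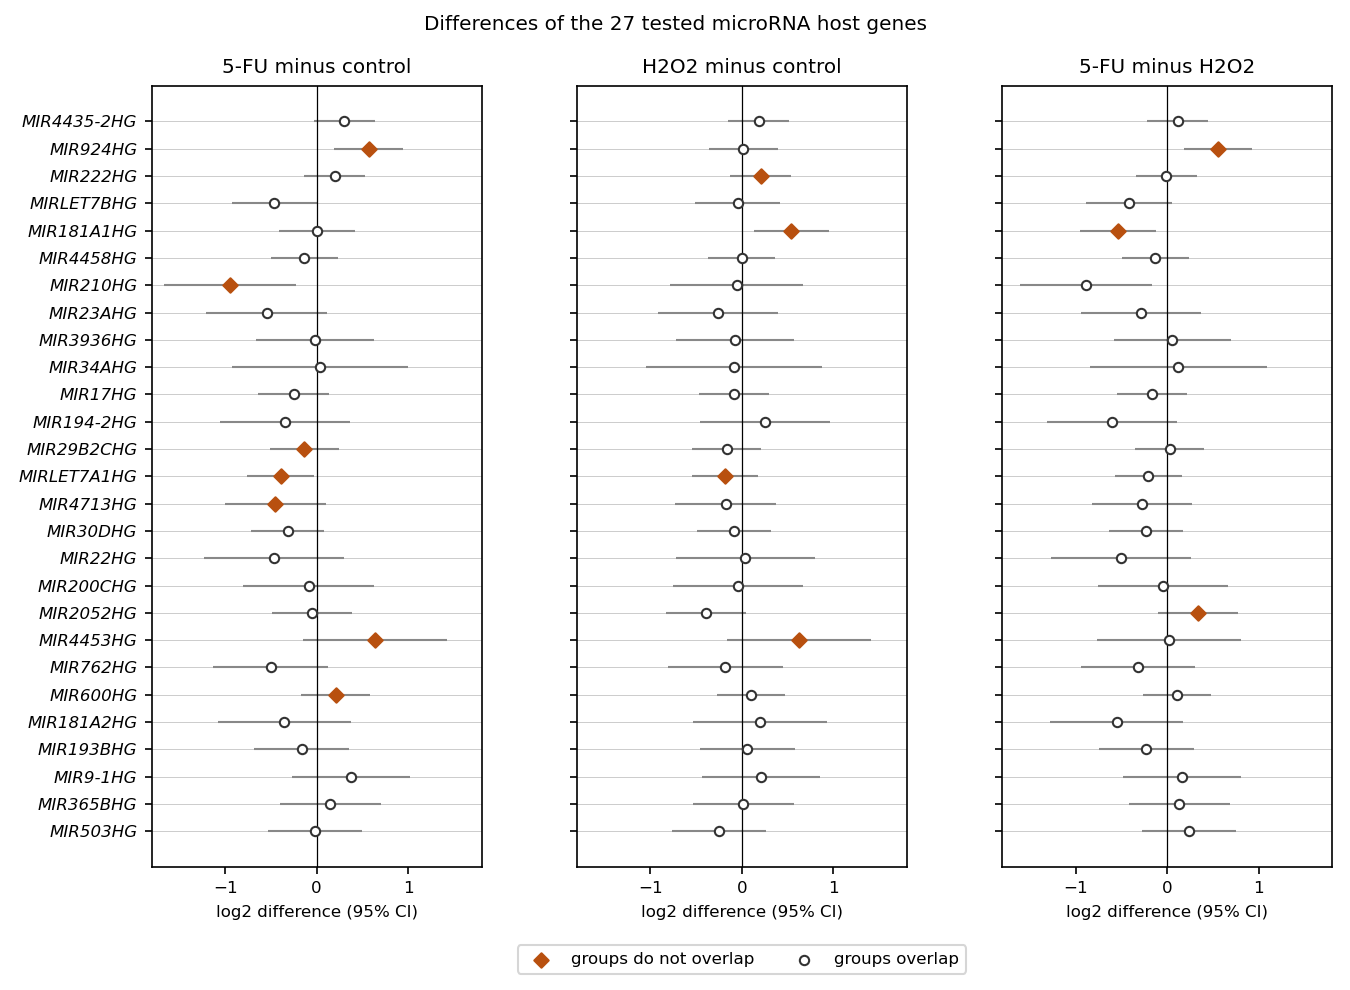
Log2 differences of the 27 tested host genes with 95% intervals for 5-FU minus control, H2O2 minus control and 5-FU minus H2O2, on the log2(FPKM + 0.5) scale. Filled diamonds mark members whose groups do not overlap: 7, 4 and 3 in the 3 panels.

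Single transcripts gave no call either. Of 72 member transcripts tested, in 21 members, 0 passed the limma test in any of the 3 comparisons, where 0.00442%, 0.0133% and 0.0133% of all 22618 transcripts did. At an unadjusted p under 0.05 there were 11, 6 and 2 member transcripts, where 10.4%, 7.6% and 8.45% of all transcripts passed. In 5-FU against control, 21 member transcripts did not overlap (29.2% beside 17.8% of all), and in H2O2 against control 16 did not (22.2% beside 13.7%). In 5-FU against H2O2, 12 did not (16.7% beside 14.3%). Several of these belong to 1 gene and share its reads. Of the 21, 7 were transcripts of MIR4435-2HG, all higher in 5-FU. The other tested transcripts of this gene overlapped the controls, among them its most abundant, MIR4435-2HG-203, with a log2 difference of 0.13. The share of all transcripts that were higher without overlap was not computed.

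Chosen after their values were seen, 2 of the 7 MIR4435-2HG transcripts without overlap are given here, 1 off the hairpin and 1 across it. MIR4435-2HG-276 had 4.88, 4.84 and 5.47 FPKM in 5-FU, 4.73, 3.75 and 4.27 in H2O2, and 3.31, 3.68 and 2.87 in control libraries. It lies 5′ of miR-4435 and does not span it, and each treated library exceeded each control. The log2 difference was 0.56 in 5-FU (limma adjusted p = 0.309) and 0.33 in H2O2 (limma adjusted p = 0.689). MIR4435-2HG-299, the main transcript across the hairpin, averaged 3.59 ± 0.155 FPKM in 5-FU, 3.21 ± 0.109 in H2O2 and 2.52 ± 0.60 in control libraries (SD, n = 3 each). It was above all controls in 5-FU (limma adjusted p = 0.434) and overlapped them in H2O2.

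The genes that act on these transcripts, or host other microRNAs, were read from the same fit. Values under protein-coding symbols come mostly from listed non-coding transcripts of those genes, not from their mRNAs. Of 30 genes for microRNA processing, 22 were tested and 0 passed in any comparison. Their median log2 difference was 0.04 in 5-FU and 0.08 in H2O2, beside 0.03 for all genes in both. The 2 most abundant were HNRNPA1, a binder of the miR-18a hairpin, at 55.7 ± 6.28 FPKM in 5-FU, 52.4 ± 9.94 in H2O2 and 80.6 ± 5.37 in control libraries, and DDX17, a Drosha partner, at 50.8 ± 2.84, 52.6 ± 1.18 and 53.5 ± 2.87 FPKM in those groups (SD, n = 3 each). Each treated library lay below each control for HNRNPA1 (log2 difference -0.54, limma adjusted p = 0.152 in 5-FU, and -0.63, limma adjusted p = 0.333 in H2O2). DROSHA itself, the nuclear enzyme, named after its values were seen, averaged 30.4 ± 3.31 FPKM in 5-FU, 19.3 ± 2.99 in H2O2 and 17.5 ± 4.16 in control libraries (SD, n = 3 each), with a limma adjusted p of 0.0945 in 5-FU.

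Among 17 tested of 37 protein-coding hosts of microRNAs, 1 passed, where 0.774% of all genes did: SMC4, a condensin subunit whose gene holds miR-15b and miR-16-2, rose after 5-FU. SMC4 had 31.1, 44.6 and 40.4 FPKM in 5-FU, 30.6, 28.8 and 29.1 in H2O2, and 18.9, 19.8 and 17.9 in control libraries. The log2 difference in 5-FU was 1.0 (SE 0.15, limma adjusted p = 0.0258), and in H2O2 0.63 (limma adjusted p = 0.333), with no overlap of either with control libraries. The call in 5-FU was lost, at a limma adjusted p of 0.0534 to 0.0982, when any 1 of 6 libraries was left out: 5-FU replicates 2 and 3, H2O2 replicate 1 and each control. It was also lost with only the 2 groups compared (limma adjusted p = 0.0586) and with a replicate block (limma adjusted p = 0.0642).

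Of 22 lncRNAs listed by name as further hosts, in which no hairpins were placed here, 15 were tested and 0 passed. GAS5 averaged 102 ± 1.29 FPKM in 5-FU, 148 ± 3.17 in H2O2 and 120 ± 7.01 in control libraries (SD, n = 3 each). NEAT1 averaged 68.0 ± 9.43, 75.5 ± 9.34 and 96.1 ± 24.7 FPKM in those groups (SD, n = 3 each). GAS5, which encodes small nucleolar RNAs, was lower in each 5-FU library than in each control and higher in each H2O2 library (limma adjusted p = 0.346 and 0.483).

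Of 21 transcription factors known at host promoters, 6 were tested and 0 passed in any comparison. RELA, an NF-kB subunit, averaged 24.4 ± 3.60 FPKM in 5-FU, 22.8 ± 6.79 in H2O2 and 19.4 ± 1.91 in control libraries, and STAT3 averaged 6.83 ± 0.374, 7.45 ± 2.23 and 5.66 ± 0.773 FPKM in those groups (SD, n = 3 each). Of 20 targets and partners of hosted microRNAs, 12 were tested and 0 passed. The most abundant was MDM2, the ligase of p53, with a log2 difference of 0.89 in 5-FU (limma adjusted p = 0.0876). CCNE1, a G1 cyclin, named after its values were seen, had 1.26 in 5-FU (limma adjusted p = 0.0841).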

How the data were processed

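RNA sequencing libraries of SNU16 cells (3 groups of 3) were made with a kit that marks strand, per the labels' protocols. The authors deposited FPKM values per transcript. HISAT2 2.0.5, StringTie, edgeR 3.22.5 and GRCh38 are named without roles, per the submitters' processing notes. No source used here says whether strand entered quantification, and 13 of the 27 tested members overlap a gene on the other strand, so their values are uncertain. Sequencing depth is unknown. Per library, the deposited FPKM summed to between 56096 and 60642.

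FPKM were summed per gene identifier. Genes with at least 3 of 9 libraries at 0.5 FPKM were tested (9947 genes) on log2(FPKM + 0.5) with limma 3.58.1 in R 4.3.3 (lmFit, eBayes with trend), all 9 libraries in 1 fit with 6 residual degrees of freedom, two-sided, Benjamini-Hochberg over all genes, threshold 0.05. Transcripts (22618) were treated likewise. Intervals are at 95% from this fit, unadjusted. Hairpins and mature sequences came from RefSeq (GRCh38.p14), exons from GENCODE V29, which lists 83 of the 84 members, and near copies from BLAST 2.17.0 (at least 98% identity over 200 bases). On simulated data with 200 of 9947 genes changed, 40.5% of changes of 1 on the log2 scale were recovered for 5-FU and 39% for H2O2, and 89% and 88% of changes of 2. Of the calls in these simulations, 10% and 10.3% were false at changes of 1, and 4.3% and 7.85% at changes of 2, beside the nominal 5%. Each rate comes from a single simulated data set, so its own spread is unknown. The simulation took each gene's observed residual SD as its true SD.

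The members, the gene lists and the tests were chosen with earlier results of these data known. Named by rule were the 8 members with the highest mean, the 4 highest and 4 lowest log2 differences against control, and the 2 of each sign between treatments. Other lists gave their called genes or else the 2 most abundant. Of the list of targets, 1 gene that this rule names is not reported here. Alternatives were other pseudocounts (0.1 and 1), filters, scalings, library weights, 2-group fits, no trend, a replicate block, and leaving out libraries.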

Additional observations from a re-analysis of the deposited data

How the results depend on the processing

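The count of host genes past the threshold was 0 in each of the 3 comparisons under all 20 alternatives run, and the count of host transcripts was 0 under all 17 run for transcripts. The alternative without both treatment libraries numbered 3, and those of the overlap counts, were chosen after seeing the data. Of the named members' log2 differences, 395 kept their direction and their side of the threshold and 2 reversed, both of them MIR23AHG in H2O2 against control, at 0.0286 without both libraries numbered 3 and -0.482 to 0.0286 when single libraries were left out, highest without H2O2 replicate 3. The cause of these reversals was not tested. Under other filters, 2-group fits, no trend, a replicate block or without a library of the group not compared, a log2 difference cannot change. Only its adjusted p can, so these settings could not have reversed a direction. SMC4 in 5-FU against control had limma adjusted p-values of 0.0209 to 0.0982 over its alternatives.

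The count over all genes moved far more. In 5-FU against control it was 77, and it was 112 with array weights, 103 with upper-quartile scaling, 48 with no filter, 21 with only the 2 groups compared, 3 without both libraries numbered 3, and 0 to 88 when single libraries were left out. It was 7, 0 and 3 without 5-FU replicates 1, 2 and 3, 20 without H2O2 replicate 1, 88 without H2O2 replicate 3, and 1, 1 and 2 without control replicates 1, 2 and 3. In H2O2 against control it was 0, 6 without both libraries numbered 3, and 0 to 3 when single libraries were left out. In 5-FU against H2O2 it was 7, 3 with array weights, 3 without the trend, 0 with no filter, 0 with only the 2 groups compared, 4 without both libraries numbered 3, and 0 to 4 when single libraries were left out. Settings without libraries, and 2-group fits, have fewer samples. For the other settings the cause was not tested.

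Host genes without overlap numbered 7, 4 and 3. With median-of-ratios scaling they numbered 9, 4 and 4, beside 22.9%, 15.6% and 18.6% of all genes. With upper-quartile scaling they numbered 10, 3 and 3, beside 22.8%, 15.5% and 18.4% of all genes. Leaving out single libraries gave 8 to 12 in 5-FU against control, beside 31.5 to 33.1% of all genes. For H2O2 against control it gave 4 to 9, beside 24.1 to 28.1% of all genes. For 5-FU against H2O2 it gave 4 to 11, beside 27 to 28.6% of all genes. Leaving out both libraries numbered 3 gave 11, 9 and 16 in the same order, beside 32.5%, 24.1% and 41.9% of all genes. Smaller groups overlap less often by construction.

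Same-numbered libraries did not deviate together (correlations of -0.036 to 0.08 after removing group means), so the numbers were not taken as pairs. With the replicate block, 0 host genes passed in each comparison, and over all genes 0 passed in 5-FU against control and 0 in 5-FU against H2O2.

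With 3 libraries a group, differences under about 1 on the log2 scale are often missed, as the simulated recovery shows, so a host gene that did not pass is not shown to be unchanged. Sequencing depth is unknown, and low hosts rest on an unknown number of reads.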
